A study of Mus musculus with 10 samples.

Results

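C/EBPβ peaks that were listed in undifferentiated 3T3-L1 cells and had no counterpart 6 h after induction numbered 2974 of 10359 (28.7%, 95% Wilson interval 27.8 to 29.6%). They were chosen by the called positions of the peaks at 6 h and 0 h, as those 0 h peaks that share no base with any 6 h peak. Their absence at 6 h is therefore the rule and not a finding. The 6 h list held 20746 peaks, and with it limited to its 10359 highest, 5067 of the 0 h peaks had no counterpart, so the number depends on how deeply 6 h peaks were called. They are called 0 h-only peaks here, and the other 7385 peaks of the 0 h list, which overlap a 6 h peak by at least 1 bp, are called recurring. Of the 0 h-only peaks, 819 had a peak height of 18 or more and 2155 a height below 18. Peak height is the whole-number read signal that the authors gave for each peak, with a lowest listed value of 12 and a median of 18 over the 0 h list.

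The cells were 3T3-L1, a mouse fibroblast line that turns into adipocytes in culture, with no genetic alteration named in the labels. C/EBPβ was profiled by ChIP-seq at 6 h after induction of differentiation and in undifferentiated cells (0 h), the glucocorticoid receptor (GR) at 6 h, and acetylated histone H3 lysine 9 (H3K9ac) in undifferentiated cells (0 h) and at 24 and 240 h. Each factor and time is 1 library of one cell line, and the lists carry no read totals. The labels name no induction hormones. Library depth is therefore unknown, no replicate error can be given, and a site missing from the 6 h list is not shown to be unbound at 6 h. All intervals are 95% intervals that cover counting error over peaks only, and peaks of 1 library are not replicates of a condition.

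C/EBPβ is a basic leucine zipper transcription factor that binds DNA as a dimer. It is induced early after the hormonal stimulus of preadipocytes, ahead of the adipocyte regulators C/EBPα and PPARγ. GR is a nuclear receptor that binds DNA when occupied by glucocorticoids, which are commonly part of the mixtures that start adipocyte differentiation. H3K9ac marks active promoters and enhancers. The deposited H3K9ac lists hold only regions outside transcription start sites that were called enriched at a given time relative to another time.

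Most 0 h-only peaks were low, but the group also held strong peaks. The share of 0 h peaks without a 6 h counterpart was 53.0% (50.2 to 55.7%) at height 12, the lowest listed value. It was 45.9% at heights of 13 to 14, 35.3% at 15 to 17, 28.8% at 18 to 20, 17.95% at 21 to 25 and 12.5% at 26 to 35. Among peaks of height 36 to 50 it was 5.96%, or 53 of 889. Among the 671 peaks of height 51 or more it was 2.09% (1.25 to 3.47%), which were 14 peaks. Over all peaks of height 18 or more the share was 15.1% (14.2 to 16.1%), and below 18 it was 43.7% (42.3 to 45.1%). These shares describe how the rule divides the list, since the height at 0 h belongs to the same contrast that chose the peaks.

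**Figure D1:**
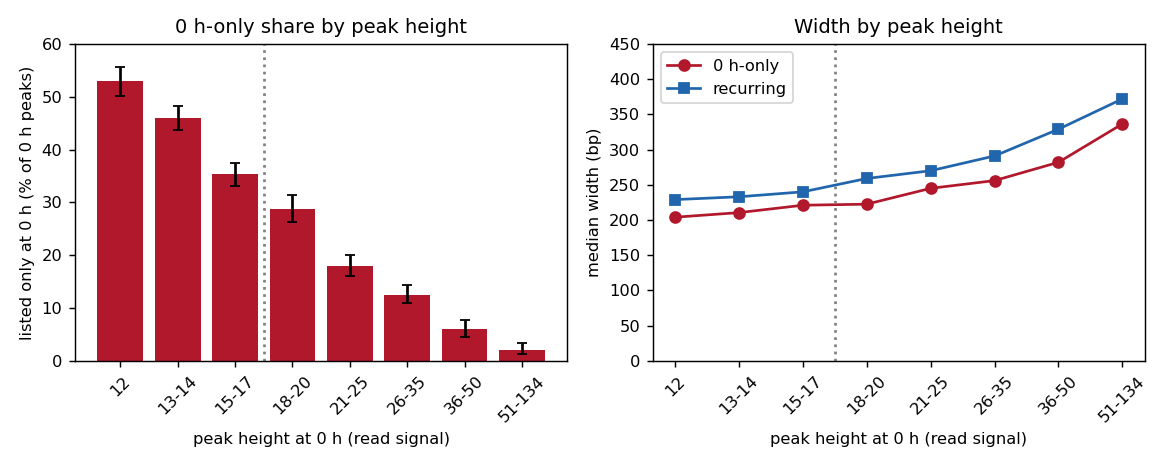
Left, share of C/EBPβ 0 h peaks listed only at 0 h (%) in 8 classes of peak height at 0 h, with 95% Wilson intervals as error bars. Right, median width (bp) of 0 h-only and recurring peaks in the same classes; the dotted line marks the division at height 18. The share was 53.0% at height 12 and 2.09% at 51 or more, and 0 h-only peaks had the lower median width in each class.

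Within the upper class of 0 h-only peaks the median height was 22, with quartiles of 19 and 27 and a highest value of 86. Recurring peaks of the same class had a median of 28 and a highest value of 134. Below height 18 the medians were 13 for 0 h-only and 14 for recurring peaks. The authors' fold enrichment had a median of 10.7 in the upper and 7.39 in the lower class of 0 h-only peaks, against 12.6 and 7.48 for recurring peaks. At like heights up to 50 the median fold enrichments were close, and slightly higher for 0 h-only peaks in each class. For example, they were 8.415 for 0 h-only and 8.38 for recurring peaks at heights of 15 to 17, and 17 and 16.9 at heights of 36 to 50. At heights of 51 or more, with 14 0 h-only peaks, the 0 h-only median was the lower one, 21.2 against 23.2. The background behind this ratio is not described in the sources used here.

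The 0 h-only peaks had lower median widths than recurring ones. A wider 0 h peak has more bases to share with a 6 h peak, so the rule bears on width and the values are a description. Their median width was 246 bp at height 18 or more, with quartiles of 203 and 309 bp, and 212 bp below 18, with quartiles of 181.5 and 265.5 bp. Recurring peaks had medians of 295 bp and 235 bp in the same classes. The lower width was seen in each of the 8 height classes. At height 12 the medians were 204 bp for 0 h-only and 229 bp for recurring peaks, and at heights of 36 to 50 they were 282 bp and 329 bp.

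The 5 highest 0 h-only peaks outside chromosome 18, which was left out of all named regions, had heights of 86, 80, 64, 57 and 56. The highest lay at chr6:108809423-108810024, was 601 bp wide and had a fold enrichment of 21.01. In the 0 h list ordered by height it held place 91, and its nearest 6 h peak, of height 44 and itself already listed at 0 h, lay 7.05 kb away. The second, at chr4:131786059-131786299, had the highest fold enrichment of the 5, 40.4, and its nearest 6 h peak was 37.4 kb away. The third, at chr5:105594410-105594678, was 39.5 kb from a 6 h peak of height 17, the fourth, at chr15:100941297-100941832, was 25.8 kb from one of height 43, and the fifth, at chr4:108331886-108332148, was 35.6 kb from one of height 24. None of these 5 overlapped a GR peak or lay within 1 kb of an H3K9ac 0 h or 24 h region. The third and the fourth lay near an H3K9ac region of 240 h, as described below. No gene is assigned to these sites, because the coordinates are on mm8 and no annotation of that build was used.

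The rule at 1 bp divides few near misses. Only 30 of the 0 h-only peaks had a gap under 100 bp to a 6 h peak, and only 4 recurring peaks overlapped theirs by less than 50 bp. The smallest gaps outside chromosome 18 were 7, 9 and 18 bp. They belonged to peaks of height 29 at chr2:45138966-45139302, 14 at chr6:47580706-47581189 and 18 at chr3:5794117-5794293. In all 3 the neighbouring 6 h peak also overlapped another 0 h peak. The smallest overlaps among recurring peaks outside chromosome 18 were 10, 17 and 35 bp, at 0 h heights of 12, 15 and 17.

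Of the 2974 0 h-only peaks, 940 (31.6%) had a 6 h peak within 10 kb. Gaps at random positions of the genome were not computed, so the distances are set beside those of recurring peaks only. The median gap to the nearest 6 h peak was 26.2 kb at height 18 or more, with quartiles of 6.94 and 70.3 kb, and 21.6 kb below 18, with quartiles of 6.68 and 57.1 kb. For recurring peaks the gap was measured to the nearest 6 h peak that did not overlap them, and the medians were 12.7 kb and 11.4 kb. A 6 h peak lay within 1 kb of 64 of the 819 stronger 0 h-only peaks (7.81%, 6.17 to 9.86%) and of 147 of the 2155 weaker ones (6.82%, 5.83 to 7.96%). Another non-overlapping 6 h peak lay within 1 kb of 11.8% (10.9 to 12.8%) and 12.2% (11.1 to 13.5%) of recurring peaks. Gaps of 100 kb or more were found for 136 of the stronger (16.6%) and 296 of the weaker (13.7%) 0 h-only peaks, against 7.94% and 7.07% of recurring peaks. Because the 6 h list chose the members, these distances are a description.

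**Figure D2:**
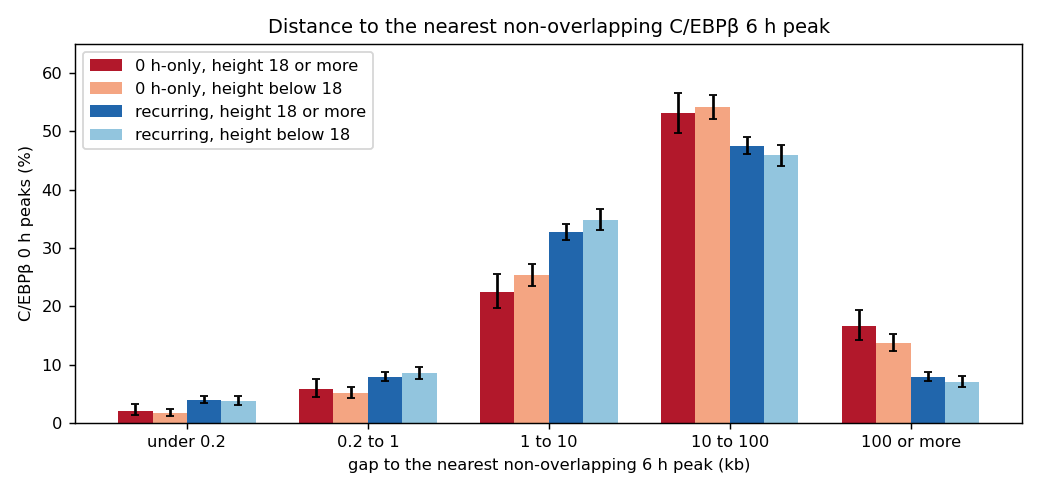
Share of C/EBPβ 0 h peaks (%) in 5 bins of the gap to the nearest 6 h peak that does not overlap them (kb), for 0 h-only and recurring peaks of height 18 or more and below 18, with 95% Wilson intervals. The 0 h-only peaks had the larger shares at 10 to 100 kb and at 100 kb or more, and the smaller shares in the bins under 10 kb.

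Where a 6 h peak did lie within 1 kb of a 0 h-only peak, it had itself been listed at 0 h in 109 of 211 cases (51.7%, 44.9 to 58.3%). For recurring peaks, the nearest non-overlapping 6 h peak within 1 kb had been listed at 0 h in 318 of 885 cases (35.9%, 32.8 to 39.1%). The 6 h peak that overlaps a recurring peak is listed at 0 h by definition and is left out here. This contrast is therefore a description. The rest of the neighbours of 0 h-only peaks were new at 6 h, which is the arrangement at the peak of height 43 at chr19:34516321-34516609. There the nearest 6 h peak, of height 22, lay 481 bp away and overlapped no 0 h peak. The 6 h neighbours within 1 kb had a median height of 18, beside a median of 14 for the 0 h-only peaks next to them. These equal the medians of the whole 6 h list, 18, and of all 0 h-only peaks, 14. Heights of the libraries were not scaled to one another here.

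The 0 h-only peaks were also less crowded within the 0 h list itself. Another 0 h peak lay within 10 kb of 23.3% (20.6 to 26.3%) of 0 h-only and 29.3% (27.96 to 30.6%) of recurring peaks of height 18 or more. The difference was -5.94 percentage points (95% Newcombe interval -9.01 to -2.65). Below 18 the shares were 23.8% and 27.8%, a difference of -4.02 points (-6.46 to -1.56). Where another 0 h peak lay within 1 kb, this neighbour was itself 0 h-only for 65 of 175 0 h-only peaks (37.1%, 30.3 to 44.5%) and for 106 of 537 recurring peaks (19.7%, 16.6 to 23.3%). Within 10 kb these shares were 31.1% (27.8 to 34.6%) and 22.7% (20.9 to 24.5%). Neighbours that are each other's nearest are counted from both sides, so the shares are a description.

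The 0 h-only peaks were scattered over 2563 windows of 100 kb, of which 2211 held 1 such peak and 352 held more. The window with most, at chromosome 17 from 6600000 to 6700000, held 5 with heights of 12 to 15, beside 1 recurring peak, 4 peaks at 6 h and 1 GR peak. A window at chromosome 5 from 105500000 to 105600000 held 4 with heights of 13, 22, 16 and 64, in order along the chromosome, and neither a recurring peak nor any 6 h peak. It contains the 0 h-only peak of height 64 described above. A window at chromosome 19 from 12000000 to 12100000 also held 4, with heights of 13 to 24, all within 3.62 kb of a 6 h peak. Outside chromosome 18, 9 windows held at least 4, and ties were ordered by summed height. Of the 2450 windows with at least 2 peaks at 0 h, 158 (6.45%) held 0 h-only peaks alone.

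The share of 0 h peaks listed only at 0 h ranged from 23.6% (21.1 to 26.3%) on chromosome 6, the chromosome with most 0 h peaks, to 34.2% (28.5 to 40.3%) on chromosome X. The median height of 0 h-only peaks was 13 on chromosome X and between 14 and 16 on the autosomes. The intervals of most chromosomes held the overall share of 28.7%, and those of chromosomes 6, 13 and 19 lay below it.

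**Figure D3:**
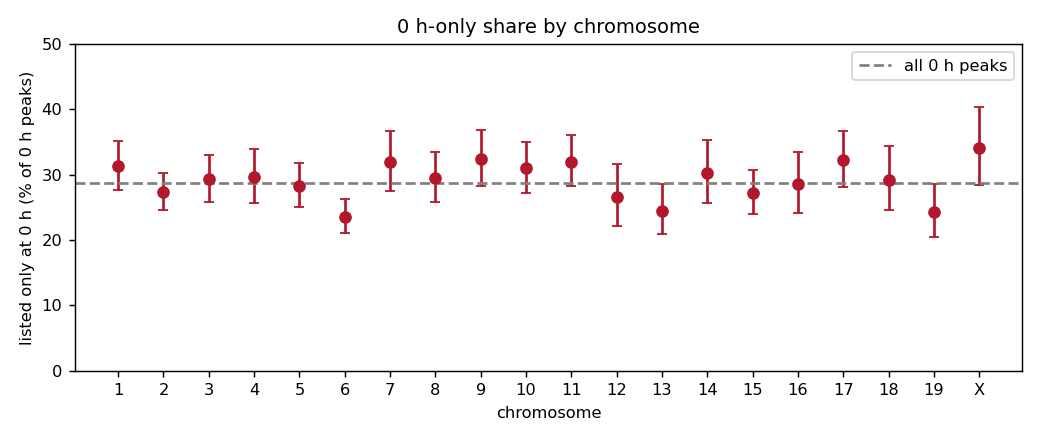
Share of C/EBPβ 0 h peaks listed only at 0 h (%) on each chromosome, as points with 95% Wilson intervals; the dashed line is the share over all 0 h peaks, 28.7%. Chromosome 6 had the lowest share, 23.6%, and chromosome X the highest, 34.2%.

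Few 0 h-only peaks overlapped a GR peak of 6 h, a count on which the rule itself bears. Of the 4007 GR peaks, 2668 (66.6%) coincided with C/EBPβ binding listed at 6 h, and 0 h peaks that touch such a 6 h peak are recurring by definition. The differences in GR overlap are therefore a description. Only 9 of 2974 overlapped a GR peak (0.303%, 0.159 to 0.574%), against 10.3% of all 0 h peaks. At height 18 or more GR lay on 2 of 819 0 h-only peaks (0.244%, 0.0670 to 0.886%) and on 748 of 4611 recurring peaks (16.2%, 15.2 to 17.3%), a difference of -15.98 points (-17.1 to -14.8). Below 18 it lay on 7 of 2155 (0.325%, 0.157 to 0.669%) and on 306 of 2774 (11.03%, 9.92 to 12.3%), a difference of -10.7 points (-11.9 to -9.54). Among recurring peaks the stronger class overlapped GR more often than the weaker one, by 5.19 points (3.59 to 6.75). The corresponding difference within the 0 h-only peaks was -0.0806 points (-0.468 to 0.583).

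The contrast was not seen with the 1339 GR peaks that share no base with C/EBPβ peaks of 6 h, a selection added after the values had been seen. Of these 1339, 8 overlapped a 0 h-only peak and 7 a recurring peak. They lay on 8 of the 2974 0 h-only peaks (0.269%, 0.136 to 0.530%) and on 7 of the 7385 recurring peaks (0.0948%, 0.0459 to 0.196%). At height 18 or more the difference was -0.00802 points (-0.192 to 0.563), and below 18 it was 0.289 points (0.0517 to 0.634), the opposite direction to that with all GR peaks. The difference below 18 rests on few peaks, 7 of 2155 0 h-only and 1 of 2774 recurring. This selection is also bound to the rule, since each recurring peak overlaps a 6 h peak that a GR peak there can touch. With the GR peaks inside the 6 h list, 1 of the 2974 0 h-only peaks (0.0336%) and 1048 of the 7385 recurring peaks (14.2%) were overlapped. With all GR peaks, one lay within 10 kb of 7.94% (6.28 to 9.99%) of the stronger and 6.68% (5.70 to 7.82%) of the weaker 0 h-only peaks. The recurring peaks had 25.9% (24.6 to 27.2%) and 22.3% (20.8 to 23.9%). Median gaps to the nearest GR peak were 158.7 kb in both height classes of 0 h-only peaks, and 72.6 and 75.5 kb in those of recurring peaks. The shares within 10 kb and the gaps include direct overlaps, found for 0.244% of the stronger 0 h-only and 16.2% of the stronger recurring peaks. The rule bears on these overlaps, so the shares and gaps are a description.

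The strongest 0 h-only peak with GR lay at chr3:138186305-138186687, with a C/EBPβ 0 h height of 32 and a GR height of 24. It was the only one of the 9 near an H3K9ac region as well, a 0 h region at 138185100 to 138187050. The next, of height 29 on chromosome 2, is the peak with the smallest gap to a 6 h peak given above, and its GR peak of height 12 also reached that 6 h peak. The other 7 had C/EBPβ heights below 18. They included peaks of height 13 at chr4:149715454-149715754, chr13:75104785-75105019 and chr13:109570338-109570710, with GR heights of 21, 13 and 17. Over the 9 sites GR heights ran from 12 to 33 with a median of 17, and over the 1054 recurring peaks with GR from 12 to 121 with a median of 16.

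For H3K9ac of undifferentiated cells, no difference between 0 h-only and recurring peaks beyond counting error was found within 1 kb in either height class, while within 10 kb the stronger class differed. Within 10 kb, 0 h regions lay near 13.2% (11.04 to 15.7%) of the stronger 0 h-only peaks and 17.5% (16.4 to 18.6%) of the stronger recurring peaks, a difference of -4.29 points (-6.72 to -1.58). At 1 kb, a 0 h region lay near 203 of the 2974 0 h-only peaks, or 6.83% (5.97 to 7.79%), beside 7.79% of all 0 h peaks. At height 18 or more the shares were 7.57% (5.95 to 9.59%) for 0 h-only and 8.57% (7.79 to 9.41%) for recurring peaks, a difference of -0.996 points (-2.82 to 1.16). Below 18 they were 6.54% (5.57 to 7.67%) and 7.53% (6.61 to 8.58%), a difference of -0.991 points (-2.41 to 0.464). Both of these intervals include 0, and neither leaves out a deficit of up to 2.41 points. Over both classes together the difference was -1.35 points (-2.42 to -0.216), a comparison in which recurring peaks were also higher. With recurring peaks weighted to the exact heights of the 0 h-only peaks, the differences were -0.0170 points (-1.89 to 2.21) in the stronger and -0.835 points (-2.23 to 0.672) in the weaker class.

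Of the 203 sites, 169 overlapped the acetylated region itself and 34 lay beside it. The highest was a peak of height 56 at chr5:52904793-52905132, inside a region at 52904600 to 52909400 with an average read count of 19. The average read count is the authors' whole-number signal for an H3K9ac region, with a median of 11 over the 0 h list. A peak of height 55 at chr5:99454823-99455059 lay in a region with a read count of 11, and its nearest 6 h peak was 10.7 kb away. One of height 47 at chr10:83910747-83911060 lay in a region with a count of 9, and 96.3 kb from the nearest 6 h peak. The peak of height 45 at chr6:88295557-88295912 lay in a region at 88292950 to 88296250 with a count of 31. The peak on chromosome 19 with a new 6 h neighbour at 481 bp was the fifth outside chromosome 18, and its region at 34516100 to 34517550 held both.

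**Figure D4:**
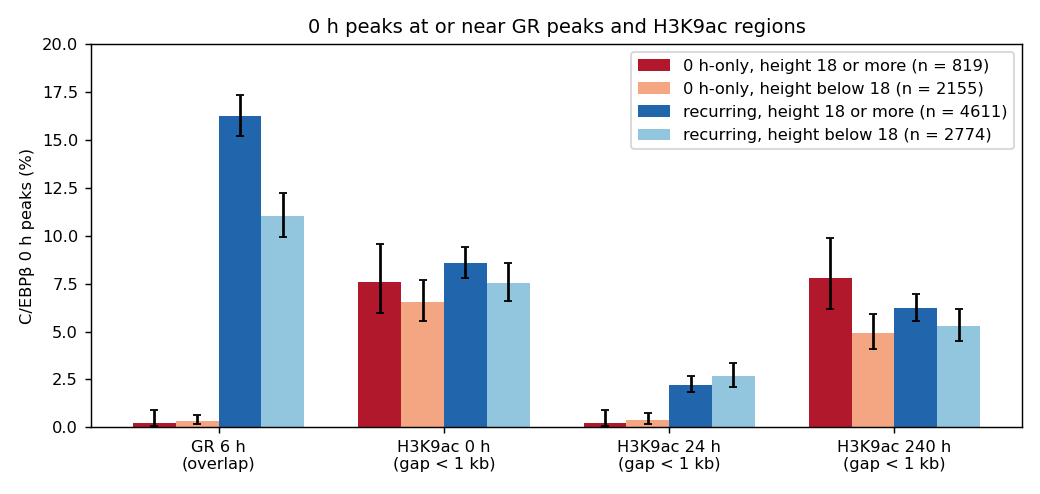
Share of C/EBPβ 0 h peaks (%) that overlap a GR 6 h peak or have an H3K9ac region of 0, 24 or 240 h with a gap under 1 kb, for 0 h-only and recurring peaks of height 18 or more and below 18, with 95% Wilson intervals. The 0 h-only peaks were below the recurring ones for GR and for H3K9ac at 24 h, and the intervals of 0 h-only and recurring peaks overlap in both height classes for H3K9ac at 0 h and at 240 h.

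Seen from the acetylated regions, 190 of the 4429 H3K9ac 0 h regions (4.29%) had a 0 h-only peak and no recurring peak within 1 kb, 25 had both and 577 had recurring peaks alone. A wider region has more room to meet a peak, so the grouping bears on width and the widths are a description. Regions with 0 h-only peaks alone had a median width of 1950 bp, with quartiles of 1300 and 2837.5 bp. Those with recurring peaks alone had a median of 1750 bp, with quartiles of 1200 and 2750 bp, and regions with no 0 h peak a median of 1400 bp. The median read count was 11 for the first and second of these groups and 10 for the third, and the FDR was listed as 0 for 66.8%, 60.1% and 47.9% of them. A C/EBPβ 6 h peak lay within 1 kb of 16 of the 190 regions (8.42%, 5.25 to 13.2%), and of 12.4% (11.4 to 13.5%) of the regions with no 0 h peak. Regions with a recurring peak are left out of the 190 by definition, so the 6 h peaks counted there are few by construction. A GR peak lay near 4 of the 190 (2.11%, 0.822 to 5.29%), against 86 of the 577 regions with recurring peaks alone (14.9%, 12.2 to 18.04%) and 81 of the 3637 regions with no 0 h peak (2.23%, 1.80 to 2.76%). Since 66.6% of GR peaks overlap a C/EBPβ 6 h peak, the rule bears on these GR shares too, and they are a description.

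The 2 H3K9ac 0 h regions with the highest read counts were in this group, as noticed after the values had been seen. The region with the highest count of the whole list, 32, at chromosome 10 from 38512950 to 38514400, held a 0 h-only peak of height 15, and no 6 h peak lay within 17.1 kb. The region with the second highest, 31, is the one on chromosome 6 that held the 0 h-only peak of height 45. Another region on chromosome 6, from 88349400 to 88355500, tied for place 5 with a count of 23. It held a 0 h-only peak of height 20 and, elsewhere in its 6100 bp, a 6 h peak that was new.

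H3K9ac regions of 24 h were rare near the 0 h-only peaks. They lay within 1 kb of 10 of 2974 (0.336%, 0.183 to 0.618%), where all 0 h peaks had 1.8%. In the stronger class the shares were 0.244% (0.0670 to 0.886%) for 0 h-only and 2.21% (1.83 to 2.68%) for recurring peaks, a difference of -1.97 points (-2.47 to -1.22). In the weaker class they were 0.371% (0.188 to 0.731%) and 2.67% (2.13 to 3.34%), a difference of -2.30 points (-2.99 to -1.65). A C/EBPβ 6 h peak lay within 1 kb of 34.9% of all 24 h regions. The share was 24.1% for 0 h and 12.6% for 240 h regions. The 6 h list also divided the 0 h peaks into 0 h-only and recurring, so these differences are a description. With the 24 h regions limited to those with an FDR listed as 0, the difference in the stronger class was -0.594 points and its interval reached 0 (-0.898 to 0.00885). The highest such 0 h-only peak, of height 23 at chr17:80916619-80916821, lay 729 bp from a 24 h region. The second, of height 18 at chr14:122666532-122666781, lay inside a 24 h region whose nearest GR peak was 152 bp from the region, while the nearest 6 h C/EBPβ peak was 226.8 kb from the C/EBPβ site.

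The next 3 in height were peaks of 16, 16 and 14, at chr16:45888139-45888349, chr11:48661852-48662143 and chr5:135153232-135153436. The one on chromosome 16 lay inside an H3K9ac 0 h region at 45887550 to 45888550 and 789 bp from a separate 24 h region, the only 0 h-only peak near both kinds. The one on chromosome 11 lay 807 bp from a 24 h region that held a 6 h peak. Of the 10 sites, 5 overlapped the acetylated region and 5 lay beside it.

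H3K9ac regions of 240 h, a time at which the cells had been differentiating for 10 days were found within 1 kb of 170 of 2974 (5.72%, 4.94 to 6.61%), and of 5.83% of all 0 h peaks. In the stronger class the shares were 7.81% (6.17 to 9.86%) for 0 h-only and 6.22% (5.56 to 6.96%) for recurring peaks, a difference of 1.59 points (-0.214 to 3.74). The interval of this difference left out 0 within 10 kb (3.55 points, 0.772 to 6.57), with the height division at 24 (3.21 points, 0.276 to 7.07) and with classes by fold enrichment (1.89 points, 0.0304 to 4.07). In the other 9 of 12 alternatives the interval included 0. With recurring peaks weighted to the heights of the 0 h-only peaks the difference was 1.84 points (-0.0139 to 4.05). With the shortened 6 h list it was 0.860 points (-0.519 to 2.35). In the weaker class the shares within 1 kb were 4.92% (4.08 to 5.91%) and 5.30% (4.53 to 6.20%), a difference of -0.380 points (-1.61 to 0.881). Over both classes together the difference was -0.161 points (-1.12 to 0.870). Among the 0 h-only peaks themselves, stronger sites lay near 240 h regions more often than weaker ones, by 2.90 points (0.970 to 5.10). Among recurring peaks this difference was 0.925 points (-0.190 to 1.99), and whether the 2 differences are unequal was not tested. The stronger and weaker 0 h-only peaks differed by 1.03 points (-0.944 to 3.26) near 0 h regions and by -0.127 points (-0.528 to 0.540) near 24 h regions.

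**Figure D5:**
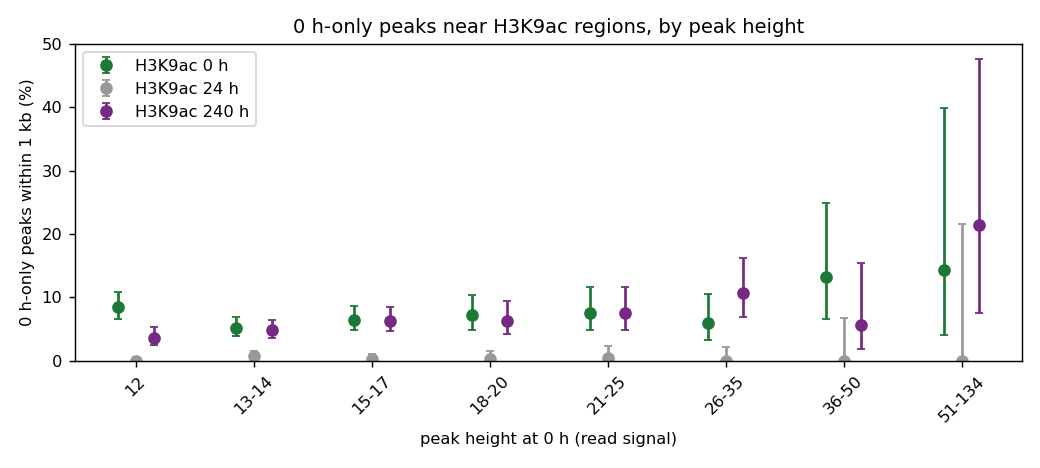
Share of 0 h-only peaks (%) with an H3K9ac region of 0, 24 or 240 h within 1 kb, in 8 classes of peak height at 0 h, with 95% Wilson intervals. Near 240 h regions the share was 3.68% at height 12 and 10.7% at heights of 26 to 35; the highest classes hold few peaks and have wide intervals.

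By height, 240 h regions lay near 24 of 653 0 h-only peaks of height 12 (3.68%, 2.48 to 5.41%) and near 18 of 169 of height 26 to 35 (10.7%, 6.84 to 16.2%). The share was 4.81% at heights of 13 to 14, 6.31% at 15 to 17, 6.36% at 18 to 20 and 7.59% at 21 to 25. Above 35 it was 3 of 53 and then 3 of 14, too few to place them in this order. Near 0 h regions the share was 8.42% (6.53 to 10.8%) at height 12 and between 5.16% and 7.59% in the classes from 13 to 35. It was 13.2% (6.55 to 24.8%) at heights of 36 to 50, or 7 of 53 peaks. Near 24 h regions no class was above 0.704%.

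Of the 170 sites near 240 h regions, 142 overlapped the region. The highest was the peak of height 64 on chromosome 5, which lay 360 bp from a region at 105592900 to 105594050 with an average read count of 11. The peak of height 57 on chromosome 15 lay inside a region at 100940650 to 100942200 with a count of 18. The third, of height 51 at chr4:91492398-91492701, lay inside a region at 91492200 to 91493200 with a count of 11, and 5.04 kb from a 6 h peak of height 13. A 0 h-only peak and no recurring peak lay near 163 of the 7845 regions of 240 h (2.08%), and 8 of these 163 (4.91%, 2.51 to 9.38%) had a 6 h C/EBPβ peak within 1 kb. The share was 7.28% (6.70 to 7.90%) for the 7230 regions with no 0 h peak and 12.6% for all 7845, and regions with a recurring peak are left out of the 163 by definition. The highest read count among the 163 was 30, at chromosome 2 from 5203550 to 5206650, a region that held a 0 h-only peak of height 19. It shared place 13 of the 240 h list, and its nearest 6 h peak was 66.7 kb away.

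Most of the 0 h-only peaks lay near none of the 4 lists. This held for 690 of the 819 stronger (84.2%, 81.6 to 86.6%) and 1894 of the 2155 weaker ones (87.9%, 86.4 to 89.2%), against 70.1% (68.7 to 71.4%) and 75.8% (74.1 to 77.3%) of recurring peaks. GR overlap enters this count and the rule bears on it, so the contrast is a description. Within 1 kb, H3K9ac regions of 0 h and of 240 h gave no called difference in either height class. The lists leave out H3K9ac at transcription start sites and H3K9ac that did not differ between times, so these sites are not shown to lack acetylation.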

How the data were processed

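ChIP-seq lists of C/EBPβ (0 and 6 h), GR (6 h) and H3K9ac (0, 24 and 240 h) were used, 1 library each; the 4 input libraries were not analysed here. Per the labels' protocols, 36 bp reads were aligned to mm8 with ELAND, allowing 2 mismatches. Only unique alignments entered the lists, each start coordinate counting once, so repeats are uncovered and the highest peaks are capped. How peaks were called, and whether input entered the calling, is not given in the sources used here. The deposited fold enrichment is a ratio over an undescribed background. The deposited peak height and average read count are whole-number signal values. The deposited FDR of H3K9ac regions is a q-value of the authors' comparison between times. No list overlapped the deposited regions of input bias.

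Overlap of at least 1 bp defined recurring peaks and GR sites, and a gap under 1 kb defined nearness to H3K9ac. Coordinates are printed as deposited. Shares have Wilson and differences Newcombe intervals at 95%, unadjusted for their number. A difference was called where its interval left out 0. The overlap code was tested on simulated lists. Python 3.11.15, numpy 2.4.6, pandas 2.3.3 and matplotlib 3.10.9 were used. The named regions are the 5 highest 0 h-only peaks over all and near each of GR, H3K9ac 0 h and H3K9ac 24 h, the 3 highest near H3K9ac 240 h, those at the edge of the rule, and the 3 densest windows, leaving out chromosome 18. Members, height classes and comparisons were chosen with earlier results of these data known. Windows, neighbours at 0 h, finer height classes and the views from the H3K9ac regions were examined as description. A search for C/EBP motifs was not run, since no mm8 sequence was used.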

Additional observations from a re-analysis of the deposited data

How the results depend on the processing

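No paired analysis was possible because each factor and time is 1 library. With recurrence defined by an overlap of 50% of the shorter peak, by centres within 1 kb or by a gap under 1 kb, there were 2981, 2809 and 2763 0 h-only peaks; with the 6 h list limited to its highest peaks, as many as at 0 h, there were 5067, since fewer 6 h peaks could be met. Of 144 values under alternatives other than the added one on GR peaks given below, 131 kept their direction and their call, or stayed within 1.5 times for the count. The 0 h-only minus recurring difference for GR kept both in all 12 of these alternatives, from -19.3 to -7.10 points in the stronger and from -15.99 to -4.86 points in the weaker class. The rule bears on GR overlap in each of them, so this constancy lends the difference no support and is a description. A choice added after the data had been seen took the GR peaks that share no base with C/EBPβ peaks of 6 h. With it the difference was -0.00802 points and uncalled in the stronger class. In the weaker class it was 0.289 points and called, from 7 of 2155 0 h-only and 1 of 2774 recurring peaks. For H3K9ac 24 h the 0 h-only minus recurring difference kept direction and call except with FDR-0 regions in the stronger class (-0.594 points). For H3K9ac 240 h the stronger class gained a call within 10 kb (3.55 points), with a height division at 24 (3.21) and with classes by fold enrichment (1.89). For H3K9ac 0 h the stronger class gained one within 10 kb (-4.29 points). The uncalled values that changed sign remained uncalled. They were, for 0 h-only minus recurring in the weaker class, H3K9ac 0 h with the shortened 6 h list (0.0161 points) and H3K9ac 240 h within 10 kb (0.290). For stronger minus weaker 0 h-only peaks they were GR within 10 kb (1.25) and with the division at 24 (0.376), H3K9ac 0 h within 10 kb (-1.43) and by fold enrichment (-0.432), and H3K9ac 24 h with FDR-0 regions (0.0293). Stronger minus weaker for H3K9ac 240 h stayed called, between 2.03 and 5.23 points. The causes of these shifts were not tested. Unknown depth limits every statement on peaks missing at 6 h.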
